A study of Caenorhabditis elegans with 4 samples.

Results

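The right arm of chromosome V of Caenorhabditis elegans was examined for binding of LET-418, as mapped by chromatin immunoprecipitation and sequencing (ChIP-seq) in whole larvae. A peak was counted in the arm when its midpoint lay at or beyond position 16550000 of V in the WS220 assembly, and 714 of the 13690 peaks in the series-wide peak list met this rule. The arm, taken to its tip at 20924149, the end of the last peak, was 4.37 Mb long, which is 4.36% of the length covered by the peak lists. All samples were wild-type N2 worms at larval stage L3, a mixed population of males and hermaphrodites, and the labels give 20 °C as the temperature. There were 2 ChIP samples made with a rabbit polyclonal antibody against LET-418 and 2 samples of input DNA, which were not analysed here. Each ChIP replicate has a peak list of its own, with 1887 peaks in replicate 1 and 19594 in replicate 2, and the series-wide list names no replicate. The lists give a start, an end and a score for each peak but no read counts, so the depth behind a peak is unknown. No label says that the replicates came from separate cultures, and whole larvae hold many tissues, so the lists do not tell in which cells LET-418 was bound.

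LET-418 is the worm relative of the nucleosome-remodelling ATPase Mi-2, known as CHD4 in mammals. It acts in the NuRD deacetylase complex and in the smaller MEC complex, and is best known in worms for keeping germline genes silent in somatic cells. The autosomes of C. elegans have a gene-dense centre that seldom recombines, flanked by arms that recombine often, carry more repeats and hold many fast-evolving gene families. The arms of V are known for large clusters of chemoreceptor genes, which serve smell and taste. No peak is assigned to a gene here.

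LET-418 peaks were denser on the right arm of V than on the rest of that chromosome in all 3 lists. In the series-wide list the density was 163 per Mb on the right arm (95% exact Poisson interval 151 to 176), 88.4 per Mb in the centre (82.8 to 94.2), which was taken from 5.9 Mb to the start of the arm, and 89.3 per Mb on the left arm (81.9 to 97.3). Replicate 1 had 52.4 peaks per Mb on the right arm, 7.70 in the centre and 6.78 on the left arm. Replicate 2 had 193 on the right arm, 133 in the centre and 143 on the left arm. The excess over the rest of V was 1.84-fold in the series-wide list (95% exact binomial interval 1.68 to 2.01), 7.10-fold in replicate 1 (5.68 to 8.92) and 1.42-fold in replicate 2 (1.31 to 1.53). These intervals, like all others given, cover counting error over peaks only, and they are too narrow where neighbouring peaks are called together. The arm held 229 replicate 1 peaks, which is 65.2% of those on V, and 844 replicate 2 peaks, which is 27.3%.

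**Figure D1:**
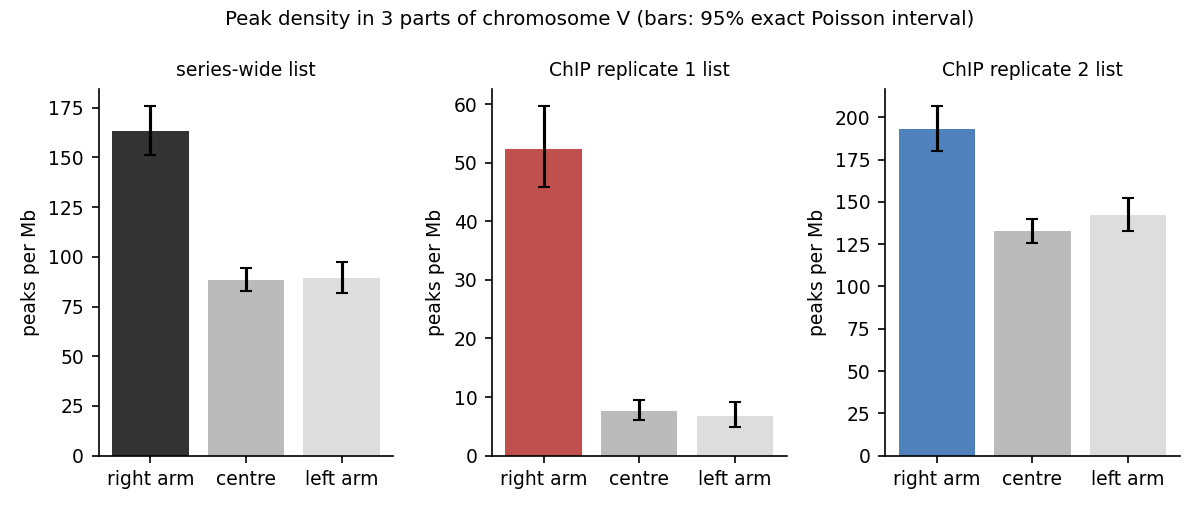
Peaks per Mb (vertical axis) on the right arm, in the centre and on the left arm of V, with 1 panel for each list and error bars for the 95% exact Poisson interval. The right arm is highest in every panel, at 163, 52.4 and 193 peaks per Mb in the series-wide, replicate 1 and replicate 2 lists, and its ratio to the rest of V is largest in replicate 1, at 7.10.

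Against the whole genome the replicates placed the arm differently. With 4.36% of the length, the arm held 12.1% of the replicate 1 peaks, 4.31% of the replicate 2 peaks and 5.22% of the series-wide peaks. The density ratio of the arm to the rest of the series was 3.03 in replicate 1 (exact binomial interval 2.63 to 3.48) and 0.987 in replicate 2 (0.92 to 1.06), so an excess over the genome was seen in replicate 1 and was not detectable in replicate 2. The series-wide ratio of 1.21 (1.12 to 1.30) lay between them. Replicate 2 had 3.69 times as many peaks as replicate 1 on the right arm, against 18.5 times on the rest of V and 11.3 times over the rest of the series. The left arm of III, taken up to 3.7 Mb and chosen as a comparison after its values were known, had a like factor of 3.52. It was denser than the right arm of V in each list, with a ratio of V right arm to III left arm of 0.544 in the series-wide list (0.494 to 0.598), 0.508 in replicate 1 and 0.532 in replicate 2.

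The arm did not fill evenly, and it opened with a long sparse stretch. The arm beyond 17650000, 3.27 Mb in all, held 676 series-wide peaks, or 206 per Mb (exact Poisson interval 191 to 223). The first 11 bins of 100 kb, from 16550000 to 17649999, held 38, or 34.5 per Mb (24.4 to 47.4). These were not spread evenly: the bin from 16750000 to 16849999 held 17 of them, and each other bin held at most 7. The density beyond the stretch was 5.98-fold higher (exact binomial interval 4.31 to 8.52). Replicate 1 had 226 peaks beyond the first 11 bins and 3 in them, and replicate 2 had 769 beyond and 75 in them, a ratio of 3.44 (2.72 to 4.43). This split was made after the bins were seen, so its ratio is a description.

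The sparse stretch began before the arm did. On the centre side of the boundary, the 10 bins from 15550000 to 16549999 held 57 series-wide peaks, of which 23 were in the bin farthest from the arm. From 15650000 to 17649999 there were 72 series-wide peaks over 2 Mb (36 per Mb, exact Poisson interval 28.2 to 45.3), 4 replicate 1 peaks and 121 replicate 2 peaks. The peaks on either side of position 16550000 were 2.73 kb inside it, with a series-wide score of 2.28 and a width of 146 bp, and 2.58 kb outside it, with a score of 9.54 and a width of 375 bp. The density therefore changed about 1.1 Mb inside the arm and not at its boundary.

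Beyond the sparse stretch the peaks came in bursts. In the series-wide list the first 11 bins had 0 to 17 peaks each, with a median of 2. The 29 bins from 17650000 to 20549999 had 3 to 65, with a median of 20. Of these 29 bins, 25 had at least 10 peaks. The densest bin of the arm ran from 19550000 to 19649999 and held 65 peaks in the series-wide list, 34 in replicate 1 and 70 in replicate 2. In it the series-wide peaks covered 21.7% of the bases, with a median distance of 865 bp between neighbouring midpoints. The next were the bin from 18950000, with 45 series-wide, 23 replicate 1 and 42 replicate 2 peaks, and the bin from 19850000, with 44, 21 and 49. These 3 bins ranked highest in all 3 lists.

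Low bins lay between the dense ones. The bin from 19750000 to 19849999, a single bin away from the densest, held 3 peaks in the series-wide list, 1 in replicate 1 and 6 in replicate 2. From 18150000 to 18449999 the 3 bins had 5, 7 and 8 series-wide peaks, although the bins on both sides had 23 and 24. Bins without a series-wide peak were those from 17050000, from 17250000 and from 20550000, in which replicate 1 had none and replicate 2 had 11, 6 and 1. Every replicate 1 peak of the arm overlapped a series-wide peak, so the lack of replicate 1 peaks there is not a separate observation. The variance of the counts over whole 100-kb bins was 11.3 times their mean on the right arm (43 bins), 4.20 times in the centre (106 bins) and 5.82 times on the left arm (58 bins). In replicate 2 these values were 10.1, 4.77 and 7.16. They were not corrected for the mean count, which in the series-wide list was 16.6 on the right arm, 8.84 in the centre and 8.83 on the left arm. The highest series-wide bin was 3.82 times the median bin on the right arm, 4.71 times in the centre and 5.23 times on the left arm. In replicate 2 it was 3.5, 3.28 and 4.45 times. Sparse and crowded bins tended to coincide in the replicates. Over the 43 bins, which share one genome sequence, replicate 1 and replicate 2 counts had a Spearman's rho of 0.83.

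**Figure D2:**
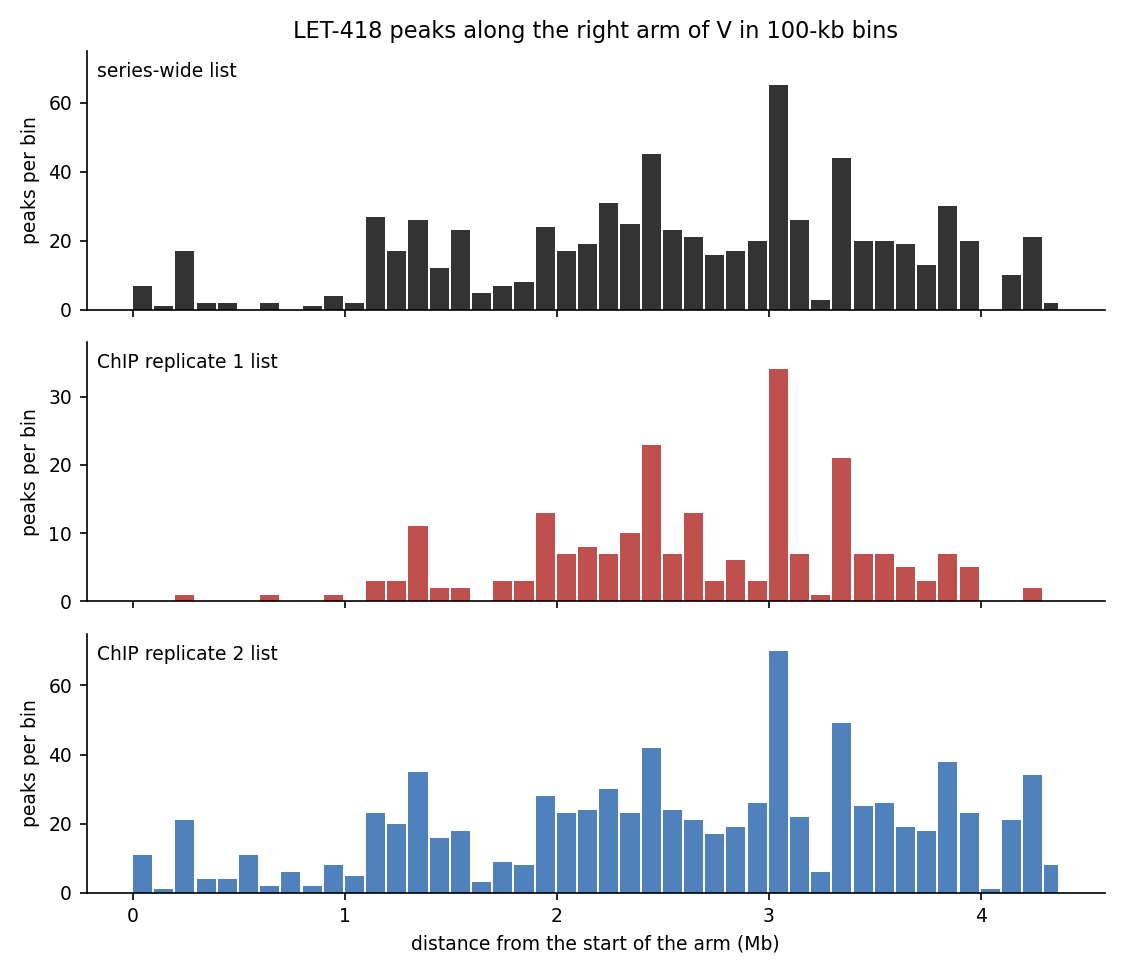
Peaks per 100-kb bin (vertical axis) against the distance from the start of the arm in Mb (horizontal axis), with 1 panel for each list; the last bin is 74.2 kb long and the replicate 1 panel has its own scale. Counts are low over most of the first 1.1 Mb, where 1 bin reaches 17 series-wide peaks. The bin that starts at 3 Mb is the highest in each panel, with 65, 34 and 70 peaks.

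Divided into 4 equal segments of 1.09 Mb, the arm had its highest density in the third of them. From the centre side to the tip, the series-wide density was 33.8, 170, 267 and 182 per Mb. Replicate 1 had 2.74, 50.3, 104 and 52.1 per Mb, and replicate 2 had 67.7, 189, 275 and 239.6. The segments took the same order in all 3 lists, but the exact Poisson intervals of the second and the fourth overlapped in each list, and those of the third and the fourth did in replicate 2. The distal 2.19 Mb held 491 series-wide peaks and the proximal 2.19 Mb 223, a ratio of 2.20 (exact binomial interval 1.88 to 2.59), and the ratio was 2.95 in replicate 1 and 2.00 in replicate 2. With the first 11 bins left out and the dividing line kept, the ratio was 1.32 (1.11 to 1.57). With those bins left out and the remainder divided equally, it was 1.05 (0.899 to 1.22).

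The last 4 bins of the arm, chosen after the bins were seen, had a lower density than the 29 bins before them. They began with an empty bin, and their series-wide counts towards the tip were 0, 10, 21 and 2. The last of them is only 74.2 kb long. The third held 34 replicate 2 peaks, so the density did not fall steadily towards the tip. The last 0.374 Mb, from 20550000, had 33 series-wide peaks, or 88.2 per Mb (exact Poisson interval 60.7 to 124), 2 replicate 1 peaks and 64 replicate 2 peaks, or 171 per Mb (132 to 218). The last peak of the series-wide list ended 44.6 kb before the tip and that of replicate 1 ended 78.4 kb before it. The last replicate 2 peak, from 20923877 to 20924149 with a replicate 2 score of 21.6, defines the tip as used here.

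The arm held some long stretches without any peak, and the longest gap of the series-wide list was among them. In the series-wide list no peak lay from 16966890 to 17155533, a gap of 189 kb that was the longest of all 13684 gaps between neighbouring peaks of a chromosome. The next on the arm were 17354484 to 17514443 (160 kb, the fifth longest in the list), 17210489 to 17354265 (144 kb), 20539507 to 20664792 (125 kb) and 18190778 to 18310629 (120 kb). The 3 longest lay side by side in the first 11 bins, with 3 peaks in all between them. Of these, the peak from 17210245 to 17210488, with a score of 32.07, was found in both replicates. The peak from 17155534 to 17155692 had a score of 5.19 and was found in replicate 2 only, and the one from 17354266 to 17354483 had a score of 1.86 and was found in neither.

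These gaps were less empty in replicate 2. None of the 5 held a replicate 1 peak, which was nearly fixed in advance, since all 229 replicate 1 peaks of the arm overlapped a series-wide peak. Replicate 2 had 12 peaks in the longest gap, with a median replicate 2 score of 3.58, and 3, 7, 1 and 1 peaks in the others. The highest replicate 2 score in any of the 5 was 9.57, below the replicate 2 median over the arm of 13.2. This too was largely fixed by the choice of gaps. Replicate 2 peaks of the arm without a series-wide counterpart had a median score of 4.98. In the replicate 2 list itself the longest gap of the arm ran over 130 kb from 17358803 to 17488790, inside the second longest series-wide gap, and it was the third longest of all 19588 gaps in that list. Replicate 1 had no peak over 395 kb from 16815149 to 17210265, its longest gap on the arm, which ranked 43 among the 1881 gaps of that list.

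Gaps of at least 20 kb took up 54.7% of the right arm in the series-wide list, against 72.6% of the centre and 69.1% of the left arm. Gaps of at least 100 kb took up 19.4% of the right arm (6 gaps), 12.7% of the centre (12 gaps) and 16.3% of the left arm (8 gaps). Between these classes, gaps of at least 50 kb took up 33.9% of the right arm, 35.4% of the centre and 41.3% of the left arm. In neither replicate list did the right arm have the highest share in the longest class. In replicate 1 that class gave 52.2% on the right arm, 88.3% in the centre and 94.9% on the left arm. In replicate 2 it gave 2.97% on the right arm (1 gap), 6.47% in the centre (6 gaps) and 1.87% on the left arm (1 gap).

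Neighbouring peaks on the arm stood closer together than elsewhere on V. The median distance between midpoints was 1376 bp on the right arm in the series-wide list (95% interval from order statistics 1240.5 to 1550), 2399 bp in the centre and 2484 bp on the left arm. In replicate 1 it was 2752 bp on the right arm, 44615 bp in the centre and 58524 bp on the left arm. In replicate 2 it was 1433 bp on the right arm (1288 to 1558), 1809 bp in the centre (1626 to 2005) and 1844 bp on the left arm. On the left arm of III the median was shorter still, at 1224.5, 1784 and 1168 bp in the series-wide, replicate 1 and replicate 2 lists. Over the rest of the series it was 1844, 7031 and 1598 bp. The mean distance on the right arm in the series-wide list was 6068 bp, far above the median. Within 1 kb of their neighbour lay 37.7% of the spacings on the right arm, 27.7% in the centre and 29.1% on the left arm. Along the arm the median spacing was 5622, 1479, 1210 and 1400 bp in the 4 segments from the centre side to the tip.

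**Figure D3:**
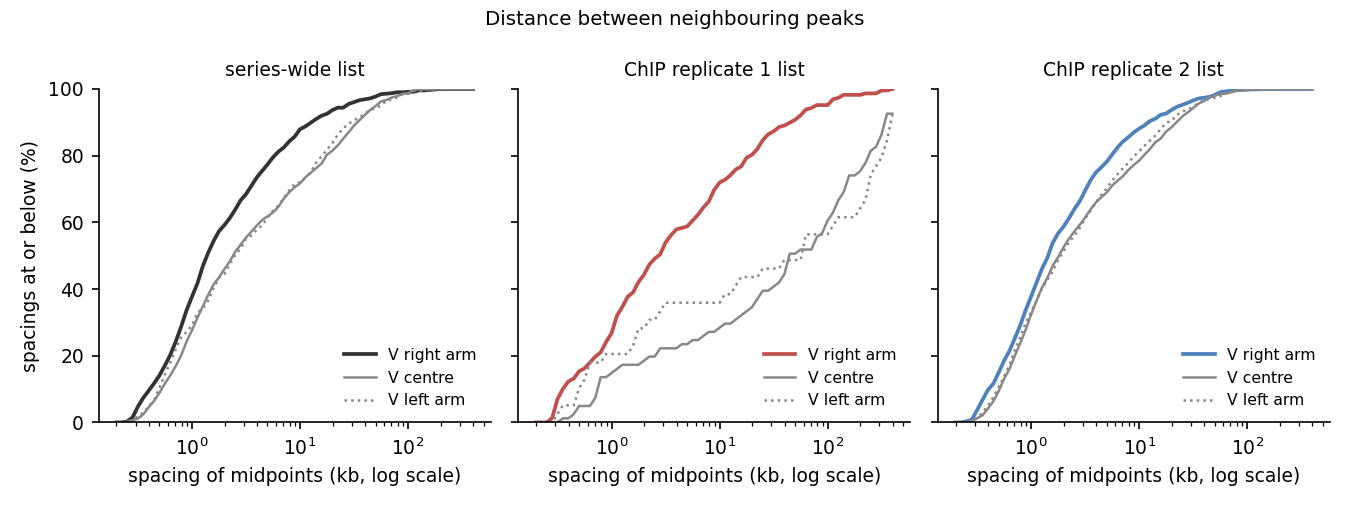
Percentage of spacings (vertical axis) at or below a given distance between neighbouring midpoints in kb (horizontal log axis) on the right arm, in the centre and on the left arm of V, with 1 panel for each list. The right arm curve lies to the left of the others over most of its range, with medians of 1376, 2752 and 1433 bp in the series-wide, replicate 1 and replicate 2 lists.

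Peak width on the arm was close to that of the rest of the series. The median was 242.5 bp on the arm in the series-wide list (95% interval from order statistics 236 to 254) and 247 bp over the rest of the series (244 to 249). It was 222 bp on the arm (204 to 240) and 207 bp over the rest (202 to 211) in replicate 1, and 242 bp (235 to 251) and 249 bp (247 to 251) in replicate 2. Peaks over 1 kb made up 4.06% of the arm peaks (29 of 714) and 2.81% of the rest of the series, a difference of 1.26 percentage points (95% Newcombe interval 0.00148 to 2.99). On the left arm of III the series-wide share was 4.32%. In replicate 2 the shares were 3.79% on the arm and 2.85% in the rest, a difference of 0.943 points (-0.177 to 2.47). In replicate 1 the difference was 0.0435 points (-1.04 to 2.55). All 29 of the series-wide list lay beyond the first 11 bins, and 14 of them were in the most distal of the 4 segments.

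The widest series-wide peak of the arm ran over 2437 bp from 17936868 to 17939304, with a score of 49.1. It overlapped 2 replicate 1 peaks and 2 replicate 2 peaks, with highest scores of 16.5 and 72.5 in their own lists. The peaks at 20100960 to 20103373 (2414 bp), 19122393 to 19124801 (2409 bp) and 19622225 to 19624518 (2294 bp) followed, with series-wide scores of 31.5, 36.9 and 42.1. The last of these was a single peak of 2286 bp in replicate 2 and was broken into 5 peaks in replicate 1. The fifth widest, 20272838 to 20274840 (2003 bp), had a lower series-wide score of 11.06 and no replicate 1 counterpart. The widest peak that replicate 2 had on the arm was longer than any of these, at 3932 bp from 19199217 to 19203148.

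Scores were higher on the arm than on the rest of V in each list, and they were like those on the left arm of III. The score is the authors' own value for a peak and is compared only within a list. Its median was 11.9 on the arm (95% interval from order statistics 10.6 to 12.4) and 7.52 over the rest of the series (7.34 to 7.57) in the series-wide list, with 6.85 on the rest of V. It was 6.01 on the arm (5.42 to 6.01) and 5.20 over the rest of the series (4.83 to 5.42) in replicate 1, where the intervals met, with 3.75 on the rest of V. In replicate 2 it was 13.2 on the arm (12.2 to 14.7) and 9.15 over the rest (9.10 to 9.37), with 8.73 on the rest of V. On the left arm of III the medians were 13.2, 6.01 and 13.68 in the series-wide, replicate 1 and replicate 2 lists. Of the arm peaks, 168 or 23.5% (95% Wilson interval 20.6 to 26.8) were in the highest score decile of the series-wide list, against 9.26% of the rest of the series and 5.72% of the rest of V. Along the arm the series-wide median score was 6.55, 11.7, 13.6 and 10.25 in the 4 segments from the centre side to the tip. Score and width were related, with a Spearman's rho of 0.54 across the 714 arm peaks, which are not independent.

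The highest series-wide score on the arm, 52.7, belonged to the peak from 19933060 to 19934131. It had the highest arm score in replicate 2 as well, 153, but only 5.29 in replicate 1, where 38.4% of the arm peaks scored lower. The peaks at 19157877 to 19158223 and 19611576 to 19612031 shared a score of 52.1. The peak from 19157877 overlapped a replicate 1 peak with a score of 17.95, the highest reached on the arm in that list, and a replicate 2 peak with a score of 100.05. For the peak from 19611576 these scores were 13.6 and 111. The peaks at 18684365 to 18684775 and 20423116 to 20423651 had 50.9, with replicate 1 scores of 17.95 and 13.6 and replicate 2 scores of 65.95 and 115. All 5 were found in both replicates and all lay beyond the first 11 bins. The 222 replicate 1 peaks of the arm that were shared with replicate 2 had a Spearman's rho of 0.28 between the scores of both lists, against 0.43 for the 1646 shared ones elsewhere.

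**Figure D4:**
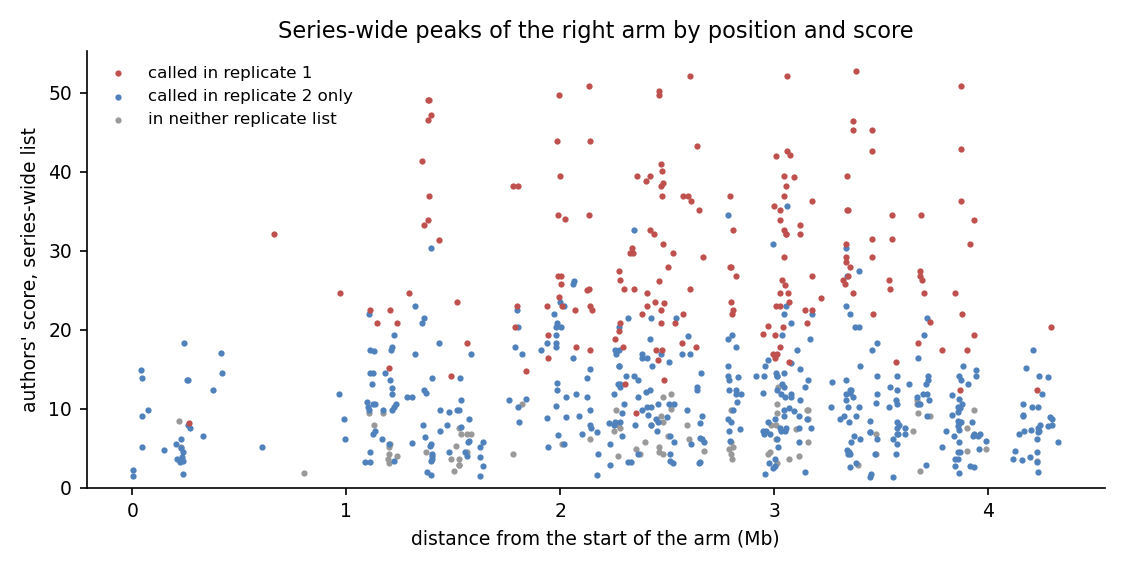
Series-wide score (vertical axis, the authors' unit) of each of the 714 arm peaks against its distance from the start of the arm in Mb (horizontal axis), coloured by recovery. Peaks called in replicate 1 take up the top of the range and are few in the first 1.1 Mb, while the grey peaks that are in neither replicate list lie low and mostly beyond 1.1 Mb.

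Recovery of the arm peaks was higher than over the rest of the series in replicate 1 and lower in the full replicate 2 list. Of the 714 series-wide peaks, 192 overlapped a replicate 1 peak by at least 1 bp, which is 26.9% (Wilson interval 23.8 to 30.3), where 12.1% of the whole list did. In replicate 2 622 were recovered, or 87.1% (84.5 to 89.4), where 93.3% of the whole list were. Set against the rest of the series, recovery on the arm was higher by 15.6 percentage points in replicate 1 (95% Newcombe interval 12.4 to 19.0), and it differed by -6.55 points in replicate 2 (-9.24 to -4.25). With replicate 2 cut to its 1887 highest-scoring peaks, the length of the replicate 1 list, it recovered 17.2% of the arm peaks (Wilson 14.6 to 20.2) and 14.97% of the rest of the series (14.4 to 15.6), a difference of 2.25 points (Newcombe -0.414 to 5.26). At that length replicate 2 recovered fewer arm peaks than replicate 1. The cut kept high scores, and in the series-wide list 23.5% of the arm peaks were in the highest score decile, against 9.26% of the rest. Without matching for score, the cut cannot show whether arm peaks of like score were still recovered less often. On the left arm of III the full lists recovered 29.3% in replicate 1 and 90.5% in replicate 2. Both replicates recovered 185 arm peaks, or 25.9%, against 12.0% of the whole list. Neither did for 85 arm peaks, or 11.9% (9.73 to 14.5), against 6.57% of the whole list.

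Recovery followed the score. The arm peaks found in both replicates had a median series-wide score of 26.9 and a median width of 473 bp. Those found in replicate 2 only had 9.84 and 228 bp, and those found in neither had 5.83 and 177 bp. None of the 200 arm peaks under the median score of the list was found in replicate 1, which allows a share of up to 1.5% (3 counts of the total), and 38 of 6520 such peaks in the rest of the series were, or 0.583%.

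Within the highest scores, replicate 1 recovery on the arm was above that of the rest of the series and close to that of the left arm of III. In the highest quartile of the series-wide score, replicate 1 recovered 187 of 312 arm peaks, or 59.9% (Wilson 54.4 to 65.2), and 41.3% of the rest of the series (39.6 to 43.0). On the left arm of III it recovered 56.8%, a difference of 3.16 percentage points between the right arm of V and it (Newcombe -3.72 to 9.90). The arm peaks of that quartile had higher scores than the others, so it was divided further. Between scores of 21.5 and 28.0, where the medians were 24.07 and 24.1, recovery was 79.5% on the arm (58 of 73, Wilson 68.8 to 87.1) and 57.9% in the rest of the series (53.99 to 61.8), with 68.6% on the left arm of III (59.8 to 76.3). In the 4 other bands of that quartile the intervals overlapped, and in the lowest of them, from 13.45 to 15.3, the order was turned, with 9.09% on the arm (4 of 44) and 13.6% in the rest.

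In the full replicate 2 list the arm peaks were recovered less often than the rest of the series in each of the 3 lower quartiles. From the lowest quartile upward, the shares were 70.2, 75.5, 83.7 and 98.4% on the arm and 87.4, 91.5, 96.4 and 99.6% in the rest of the series. The differences were -17.2 percentage points (Newcombe -27.2 to -8.82), -16.1 (-25.1 to -8.79), -12.8 (-18.5 to -8.26) and -1.15 (-3.25 to -0.187). On the left arm of III the replicate 2 shares were 73.2, 74.7, 90.2 and 99.3%. In the lowest, second and highest quartiles they lay within counting error of those on the right arm of V. These score bands come from the series-wide list, and how its scores were made from the replicates is not given in the sources used here. Whether the relation of recovery to place depends on that was not tested.

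**Figure D5:**
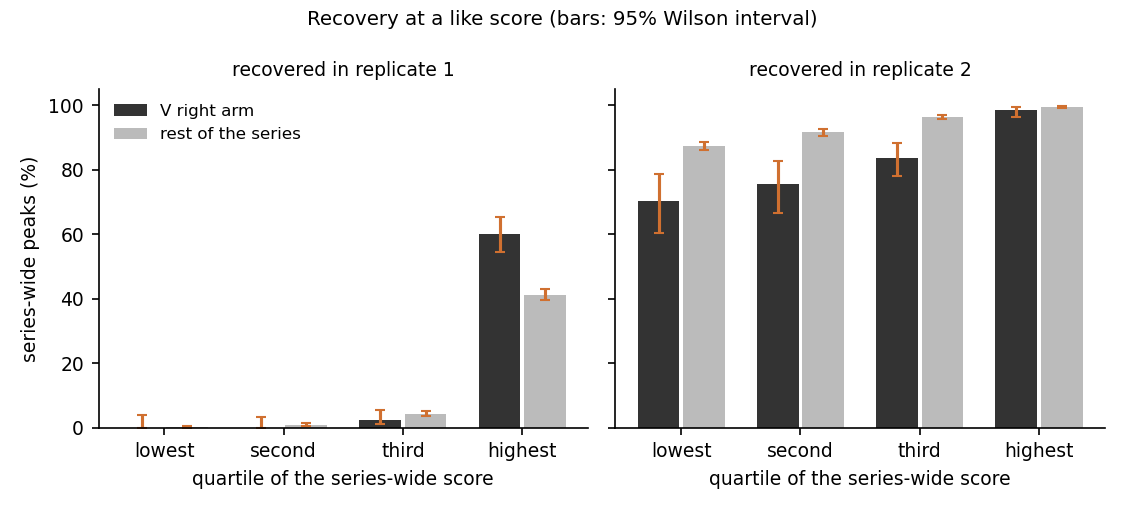
Percentage of series-wide peaks recovered (vertical axis) in replicate 1 and in replicate 2 by quartile of the series-wide score (horizontal axis), for the right arm of V and the rest of the series, with 95% Wilson intervals. In the highest quartile the arm is above the rest in replicate 1, at 59.9% against 41.3%, and in the 3 lower quartiles it is below the rest in replicate 2. Scores are not matched within a quartile, and in the highest one those of the arm peaks were higher.

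Recovery varied along the arm in replicate 1. It was 8.11% (3 of 37 peaks, Wilson 2.80 to 21.3), 24.7% (46 of 186), 33.9% (99 of 292, 28.7 to 39.5) and 22.1% (44 of 199) in the 4 segments from the centre side to the tip. The median series-wide scores of the segments, 6.55, 11.7, 13.6 and 10.25, took the same order. Recovery by segment was not matched for score, so place and score cannot be told apart here. In replicate 2 recovery was 91.9, 86.6, 83.6 and 92.0%, lowest where replicate 1 recovery was highest, though the Wilson intervals of the 4 segments overlapped. In the densest bin, from 19550000, 28 of the 65 series-wide peaks were found in replicate 1 and 58 in replicate 2. In the bin from 18950000 these numbers were 22 and 35 of 45, so 77.8% were found in replicate 2 there.

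Nearly all replicate 1 peaks of the arm reappeared in the other lists. All 229 overlapped a series-wide peak (99.8% of the whole replicate 1 list did), and 222, or 96.9% (Wilson 93.8 to 98.5), overlapped a replicate 2 peak, against 99.3% of the rest of the series (98.7 to 99.6); the share over the whole list was 99.0%. The 7 that did not lay 0.167 to 3.06 kb from the nearest replicate 2 peak. Of these, 3 were close together, at 19022428 to 19022631, 19025395 to 19025626 and 19035411 to 19035701, and had the highest replicate 1 scores of the 7, with 7.89, 6.01 and 9.21. Correspondingly, 7 of the 15 series-wide peaks found in replicate 1 but not in replicate 2 were on the arm. They were 0.980% of the arm peaks, against 0.110% for the whole list. None of the 1468 on the rest of V was of this kind, which allows a share of up to 0.204% (3 counts of the total). Only peaks found in replicate 1 can be of this kind, and there were 192 on the arm and 102 on the rest of V. Of the other 8 found in replicate 1 but not in replicate 2, 4 were on the left arm of III, or 0.360% of its peaks.

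Replicate 2 peaks of the arm had a series-wide counterpart more often than those of the rest of the series, as did those on the left arm of III. Of 844, 630 had a series-wide counterpart, or 74.6% (Wilson 71.6 to 77.5), against 62.8% of the rest of the series (62.1 to 63.5), and over the whole replicate 2 list the share was 63.3%. On the left arm of III it was 77.6% (75.3 to 79.8). The 214 that had none were weak, with a median replicate 2 score of 4.98 against 19.4 for those kept. They made up 60.8% of the replicate 2 peaks in the first of the 4 segments (45 of 74) and 21.3, 16.9 and 28.2% in the next ones, so the sparse stretch of the series-wide list was in part filled by weak replicate 2 peaks. A replicate 1 counterpart was found for 195 replicate 2 peaks of the arm, or 23.1% (20.4 to 26.1), against 8.0% of the rest of the series and 8.65% of the whole list, and for 25.3% of those on the left arm of III.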

How the data were processed

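LET-418 ChIP-seq of L3 larvae was described from 3 deposited peak lists. Reads were aligned with BWA to ce10, per the submitters' processing notes, and peaks were called with MACS on WormBase WS220, per the file headers. Not given in the sources used here are how the series-wide list was made, what role the input played, the peak threshold and tool versions. The deposited score of a peak has no named scale and was compared only within a list, apart from rank correlations of shared peaks. No list was filtered. The end of V is the end of its last peak. Positions are on WS220. No genome or gene model of that build was used, so no gene is named and no sequence is shown.

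Densities carry 95% exact Poisson intervals, density ratios exact binomial, shares Wilson, differences of shares Newcombe and medians order-statistic intervals. For a share of 0 the limit given is 3 counts of the total. Peaks are clustered and are no replicates, so no p-value is given. Overlap meant at least 1 bp. Regions named are the 5 highest-scoring and 5 widest arm peaks, the 5 longest gaps, the 3 densest and all empty 100-kb bins, and replicate 1 peaks absent elsewhere. Others, such as the widest replicate 2 peak, the bins between dense ones and the first 11 bins, were picked once their values had been seen. The members and lists were chosen with earlier results of these data known. Overlap, gap and interval calculations were tested on simulated data. Computing used SciPy 1.17.1, NumPy 2.4.6 and pandas 2.3.3 under Python 3.11.15, and plots Matplotlib 3.10.9. Alternatives were the replicate lists, score and overlap thresholds, merging of close peaks and other arm limits.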

Additional observations from a re-analysis of the deposited data

How the results depend on the processing

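No paired analysis was possible because none of the 3 lists gives a value for an input sample. Leaving out the densest bin or the first 11 bins was chosen after seeing the data. With a replicate list in place of the series-wide one, the right arm's density ratio ranged from 1.42 to 7.10 over the rest of V, 1.46 to 6.80 over the centre and 1.35 to 7.72 over the left arm. The ratio of distal to proximal parts ranged from 2.00 to 2.95 and the share in gaps of 20 kb or more from 47.8 to 83.6%. The median spacing ranged from 1433 to 2752 bp and the median width from 222 to 242 bp. In each range replicate 1 gave the larger ratio, share and spacing, and the smaller width. The median score was 6.01 in replicate 1 and 13.2 in replicate 2, values that are not comparable between lists. Among peaks at or above the list median score the density ratios were 2.97, 2.90 and 3.10, the spacing 1832 bp, the width 266 bp and recovery 37.4% in replicate 1 and 92.6% in replicate 2. Merging peaks under 500 bp apart gave a ratio of 1.68 over the rest of V and a spacing of 3116 bp. Without the last 500 kb of V the distal to proximal ratio was 3.01. Without the first 11 bins it was 1.32 with the dividing line kept and 1.05 with the remainder divided equally, and the ratio over the rest of V was 2.33. With 50% of the series-wide peak covered, replicate 1 recovered 20.03%. With replicate 2 cut to the 1887 highest-scoring peaks, it recovered 17.2%. All 28 alternative density ratios stayed above 1, although the interval of the 1.05 ratio includes 1. These ratios compare parts of V only. The ratio to the rest of the series, 3.03 in replicate 1 and 0.987 in replicate 2, is not among them. Neither is the ratio to the left arm of III, which was 0.544 in the series-wide list and below 1 in each replicate. Read depth is unknown and limits every absence.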
